A study of Mus musculus with 8 samples.

Results

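The granule genes of cytotoxic lymphocytes described here are 8 genes named by symbol: the granzymes Gzma, Gzmb, Gzmc, Gzmk and Gzmm, the pore protein gene Prf1, the granule proteoglycan gene Srgn and the granule membrane protein gene Nkg7. They are 8 of the 25367 genes in the table. Of these, 7 were matched by Ensembl gene identifier and all 7 passed the filter on low counts. Gzmk was not analysed here. RNA-seq was done on wild-type C57BL/6 mouse group 2 innate lymphoid cells (ILC2s) of the large intestine, grown for 5 days in a mix of IL-33, IL-25, IL-7 and IL-2 (10 ng/mL of each). The cells then had 16 hours of vehicle (4 libraries) or of SC-57461A (4 libraries), an inhibitor of leukotriene A4 hydrolase. All 8 libraries therefore come from cells expanded in the same 4 cytokines, and a freshly isolated cell is not among them. Nothing in the labels ties a replicate to its own animal or culture, so every p-value speaks of the spread among libraries alone, and that spread may be technical.

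Granzymes are serine proteases stored in the acidic granules of killer cells, where they are bound to serglycin, a proteoglycan with strongly charged sugar chains. When a granule is released against a target cell, perforin opens the target's membrane and granzymes enter; granzyme B cleaves after aspartate and granzyme A after basic residues. Natural killer cells and cytotoxic T cells are the usual sources of the full set, while ILC2s are known mainly for cytokines of type 2 immunity. Granzymes are also found without perforin in other leukocytes.

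The libraries held 47376196 to 71155654 counts, with 17759 to 19223 genes detected. A gene with 0 counts could still have had 3, or 0.0422 to 0.0633 CPM (counts scaled to a common library total), a limit for counting error only. The libraries fell into 2 sets of 4 that cross the treatments and that no label names. Set A (vehicle 1 and 2, SC-57461A 2 and 3) had summed FPKM (fragments scaled by gene length and library total) of 390628 to 428541, and set B (vehicle 3 and 4, SC-57461A 1 and 4) of 316414 to 336044. Genes whose longest transcript is under 1 kb took 10.9% to 13.1% of counts in set A and 5.78% to 7.14% in set B. All 18 ILC2 markers were detected, with a summed level of 19601 to 22223 CPM in vehicle and 22072 to 22687 CPM in SC-57461A libraries.

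The granule genes fell into 2 tiers. Gzmb, Gzma and Srgn were among the 53 highest genes of every library by FPKM, whereas Prf1 ranked between 5173 and 7226, and Gzmc, Nkg7 and Gzmm ranked lower still. No treatment difference of any member passed the test over all genes. The promoters of Gzmb, its low neighbour Gzmc, Gzma and Prf1 are shown because these 4 genes run from the highest level to a very low one, and because Gzmb and Gzmc lie side by side on one strand. Each is the 250 bases before the RefSeq start site (GRCm38.p6), read 5′ to 3′ on the gene's strand. Capitals mark matches to the RUNX motif (TGTGGT, or ACCACA where the match is on the other strand) and to the AP-1 motif (TGANTCA).

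Gzmb, chr14:56262335-56262584, minus strand: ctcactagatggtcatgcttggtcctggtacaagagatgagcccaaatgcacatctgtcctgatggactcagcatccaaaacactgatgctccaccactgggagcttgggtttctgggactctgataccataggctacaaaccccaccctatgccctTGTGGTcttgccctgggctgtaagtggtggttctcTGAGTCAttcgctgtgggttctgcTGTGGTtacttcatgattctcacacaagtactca
Gzmc, chr14:56234658-56234907, minus strand: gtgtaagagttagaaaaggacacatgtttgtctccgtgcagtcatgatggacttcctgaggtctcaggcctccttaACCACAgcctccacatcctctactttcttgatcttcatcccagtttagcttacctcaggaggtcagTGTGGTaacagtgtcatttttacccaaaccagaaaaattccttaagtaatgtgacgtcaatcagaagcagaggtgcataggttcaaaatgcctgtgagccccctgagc
Gzma, chr13:113100982-113101231, minus strand: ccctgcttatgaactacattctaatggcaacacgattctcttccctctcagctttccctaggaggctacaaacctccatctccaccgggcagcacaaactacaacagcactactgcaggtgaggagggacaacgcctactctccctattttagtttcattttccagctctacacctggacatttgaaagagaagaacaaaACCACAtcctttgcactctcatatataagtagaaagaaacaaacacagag
Prf1, chr10:61297586-61297835, plus strand: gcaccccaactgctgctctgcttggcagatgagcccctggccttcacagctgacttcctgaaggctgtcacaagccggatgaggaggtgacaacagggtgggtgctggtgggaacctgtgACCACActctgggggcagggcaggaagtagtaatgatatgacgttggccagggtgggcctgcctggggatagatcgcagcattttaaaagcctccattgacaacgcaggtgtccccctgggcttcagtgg

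Counted back from the start site, the Gzmb window held RUNX matches at -93 to -88 and at -34 to -29, with an AP-1 match between them at -58 to -52. Gzmc had RUNX matches at -174 to -169 and at -108 to -103, Gzma had a RUNX match at -50 to -45 and Prf1 had a RUNX match at -130 to -125. No match overlapped another. Among 32851 promoter windows of the same length, searched on both strands, 14.0% held the RUNX motif and 6.75% the AP-1 motif. The 3 other motifs searched were AGATAA for GATA factors (in 9.99% of windows), AGGTGTGA for T-box factors (1.12%) and TTCNNNGAA for STAT factors (7.02%), and none had a match in these 4 windows. Thus the letters of a RUNX motif stood before the highest granzyme gene and before its neighbour of very low level alike. All 8 members matched a promoter entry. In the windows not shown, RUNX matches stood before Nkg7 (-83 to -78), before a start site of Gzmm (-247 to -242) and before a start site of Srgn (-202 to -197). The Gzmk window held no RUNX match. Nkg7 also held a T-box match at -14 to -7 and a STAT match at -220 to -212. Gzmm also held GATA and STAT matches, before different start sites. A match describes letters only.

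Gzmb (ENSMUSG00000015437, mm10 chr14:56258856-56262260) encodes granzyme B, the protease that activates caspases in a target cell. In vehicle replicates 1 to 4 its FPKM was 3612, 3709, 3112 and 2845. With SC-57461A replicates 1 to 4 it was 2470, 3116, 3445 and 2721. The treatments overlapped. Its rank by FPKM ran from 4 to 12 over the 8 libraries, so Gzmb was one of the most abundant transcripts of these cells in both treatments. In CPM, vehicle libraries averaged 5303 ± 953 and SC-57461A libraries 4802 ± 1006 (SD, n = 4 each).

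Gzma (ENSMUSG00000023132, chr13:113093825-113100979), the tryptase of the family, was read at an FPKM of 1629, 1535, 1759 and 1516 in vehicle replicates 1 to 4. The SC-57461A replicates 1 to 4 gave 1598, 1592, 2003 and 1755. SC-57461A replicate 3 was the highest and the groups overlapped. Gzma ranked 18 to 32 in its libraries. Its mean of 1583 ± 120 CPM with vehicle and 1751 ± 282 CPM with SC-57461A differed by less than the larger SD.

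Srgn (ENSMUSG00000020077, chr10:62493833-62527451) encodes serglycin, which holds granzymes and perforin inside the granule and is made by many blood cells. Vehicle replicates 1 to 4 had an FPKM of 1053, 1038, 712 and 665. SC-57461A replicates 1 to 4 had an FPKM of 790, 1022, 1258 and 809. The high and low values followed the library sets, and each treatment held values of both kinds. Together Gzma, Gzmb and Srgn took 0.742% to 1.07% of all counts of a library, and the granzymes Gzma and Gzmb alone 0.548% to 0.757%.

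**Figure D1:**
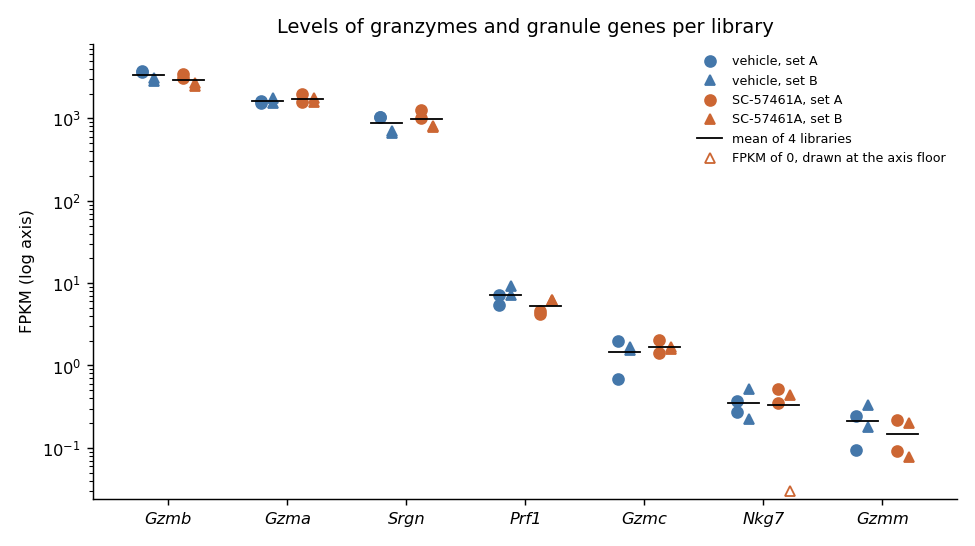
FPKM of the 7 measured granule genes in each of the 8 libraries, on a log axis, with colours for treatment, circles for set A, triangles for set B and bars for the mean of 4 libraries. The open triangle is the SC-57461A library with 0 Nkg7 counts. Gzmb, Gzma and Srgn sit between 665 and 3709, Prf1 between 4.22 and 9.10, and Gzmc, Nkg7 and Gzmm at 2.03 or less.

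Prf1 (ENSMUSG00000037202, chr10:61297836-61304263) encodes perforin, the protein through which granzymes reach the cytosol of a target. Its FPKM was 5.50, 7.23, 7.20 and 9.10 in vehicle replicates 1 to 4. In SC-57461A replicates 1 to 4 it was 6.28, 4.62, 4.22 and 6.24. Vehicle replicate 1 lay below SC-57461A replicates 1 and 4, and the other vehicle libraries lay above all SC-57461A libraries. Each library held 517 to 1476 Prf1 counts, well above the counting limit. The FPKM of Gzmb was 313 to 817 times that of Prf1 in the same library, and that of Gzma was 167 to 475 times as high.

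Gzmc (ENSMUSG00000079186, chr14:56231401-56234656), a granzyme induced late in activated mouse T cells, had an FPKM of 0.688, 2.00, 1.69 and 1.54 in vehicle replicates 1 to 4. It was 1.68, 2.03, 1.40 and 1.59 in SC-57461A replicates 1 to 4. Vehicle replicate 1 was the lowest of all, and the other 7 libraries ran from 1.40 to 2.03. Its transcript aligned to that of Gzmb at 81.1% identity over 679 bases, 47.3% of the Gzmb transcript. Counted along the Gzmc transcript, 677 bases aligned, 75.7% of it. Gzmc also aligned to Gzmd, Gzme, Gzmf and Gzmg at 84.5% to 85.2% identity, over 56.7% to 60.0% of its transcript. No member had a near-identical copy at the limit used (95% identity over 50% of the transcript). The counter is not known, and whether any of the 47 to 114 counts of Gzmc came from its much higher neighbour was not tested.

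Gzmm (ENSMUSG00000054206, chr10:79689020-79695261), a granzyme that is constitutive in natural killer cells, had an FPKM of 0.246, 0.0947, 0.331 and 0.180 in vehicle replicates 1 to 4. With SC-57461A it was 0.203, 0.218, 0.0914 and 0.0765. These values rest on 7 to 30 counts per library, and the treatments overlapped.

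Nkg7 (ENSMUSG00000004612, chr7:43437073-43438246) encodes a granule membrane protein needed for full degranulation of killer lymphocytes. Its FPKM was 0.368, 0.273, 0.222 and 0.521 in vehicle replicates 1 to 4. In SC-57461A replicates 1 to 3 it was 0.443, 0.347 and 0.521, from 18 to 28 counts. SC-57461A replicate 4 had 0 counts, which allows a level of up to 0.0591 CPM. The remaining 7 libraries overlapped between the treatments.

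Ordered by mean FPKM, both treatments gave Gzmb, Gzma, Srgn, Prf1, Gzmc, Nkg7 and Gzmm. Each neighbouring pair was separate over the 4 libraries of a treatment, except Nkg7 and Gzmm, which overlapped in both treatments. In vehicle libraries Gzmb stood 2.06 times above Gzma in FPKM, and Gzma 1.86 times above Srgn. The widest step was from Srgn to Prf1, at 119.5 times in vehicle and 181.5 times in SC-57461A libraries. The ratio of Gzmb to Gzma counts was 2.86 to 3.90 in vehicle and 2.50 to 3.16 in SC-57461A libraries, so the balance of both granzymes varied less than their distance from Prf1.

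The markers of other cells that carry granzymes were set beside these levels. Of 15 measured markers of natural killer cells and type 1 innate lymphoid cells, 11 were under 1 CPM in every library, Klra8 had 0 counts in all, and their summed level was 9.67 to 12.4 CPM in vehicle and 9.76 to 11.1 CPM in SC-57461A libraries. Among the defining ones, Ncr1 had at most 20 counts, Eomes and Tbx21 at most 8 and Klrb1c at most 7 in any library, where Gzmb had at least 185383. Those that passed 1 CPM were Klrb1b (224 to 488 counts per library), Cd244a (59 to 133), Klrk1 (41 to 123) and Klrc1 (29 to 86). Of 11 T cell markers, 6 were under 1 CPM throughout, Cd6 and Cd8b1 had 0 counts and Cd8a at most 6. Their summed level of 211.6 to 236 CPM in vehicle and 201 to 220 CPM in SC-57461A libraries lay mostly in Zap70, Lat, Cd28 and Cd3g. Of 14 mast cell and basophil markers named, 9 were measured, and Fcer1a, Ms4a2, Tpsb2, Tpsab1 and Mcpt4 were not analysed here. Of the 9, Cma1, Mcpt2 and Mrgprb2 had 0 counts, Cpa3 had at most 12, and 7 were under 1 CPM in every library. The basophil protease gene Mcpt8 went the other way, with 407 to 1258 counts in each library. That list summed to 277 to 489 CPM in vehicle and 175 to 378.5 CPM in SC-57461A libraries, nearly all from Kit. In bulk RNA, a small share of cells with much granzyme RNA and an even level in every cell cannot be told apart.

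Gzmb lies on chromosome 14 in a cluster of serine protease genes that also holds mast cell proteases and cathepsin G. Within 350 kb of its start there were 15 protein-coding genes in the table, 11 of them serine proteases over 320.8 kb. Gzmb had a mean FPKM of 3129, and Gzmc, at -27.6 kb, a mean of 1.58, a 1985-fold difference in level. The next highest protease was Mcpt8, a basophil protease gene at -177.0 kb, at a mean of 13.8 (8.98 to 20.3) and 226-fold under Gzmb. The remaining 8 proteases were near or at 0: Gzme had at most 12 counts in a library, Gzmf at most 13, Mcpt1 at most 25, Ctsg at most 8 and Mcpt9 at most 4, and Cma1, Mcpt2 and Gzmn had 0 counts in all 8. On the other side, Parp4, at a mean of 8.86, and Cenpj, at 5.33, are not proteases. Of the proteases measured in the cluster, Gzmb was the one with an FPKM above 20.3 in any library.

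**Figure D2:**
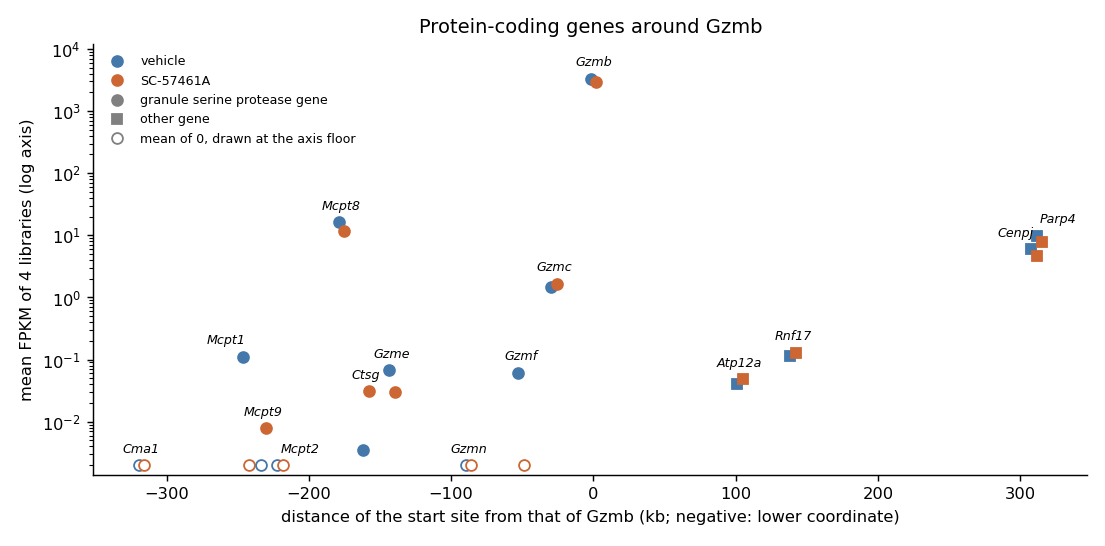
Mean FPKM (log axis) of protein-coding genes around Gzmb on chromosome 14 against distance from the Gzmb start in kb, for vehicle and SC-57461A libraries. Open symbols at the bottom mark means of 0. Gzmb stands at 3319 and 2938, and the next highest gene in the window, Mcpt8, at 16.2 and 11.5.

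The effect of SC-57461A on these genes was tested with edgeR's quasi-likelihood test across all 15095 genes that passed the filter. At an adjusted p under 0.05, 50 genes (0.331%) were called, 41 (0.272%) higher and 9 (0.0596%) lower with SC-57461A. None of the 7 granule genes was called. With no adjustment, 1 of the 7 (Prf1) had a p under 0.05, against 6.68% of all genes tested, and DESeq2 and limma on FPKM also called 0. The median log2 fold change of the 7 was -0.012, beside 0.0094 over all genes.

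Prf1 had the smallest p. Its level was 16.6 ± 2.75 CPM with vehicle and 12.4 ± 1.76 CPM with SC-57461A (SD, n = 4 each), a fold of 0.750 with a 95% interval of 0.588 to 0.956. The log2 fold change was -0.42 (SE 0.15), with an edgeR p of 0.0255 and an adjusted p of 0.631. The difference in mean log2(CPM + 0.5) was -0.40, and its exact two-sided permutation test over 70 assignments gave p = 0.0857, where 0.0286 is the smallest it allows. A difference of Prf1 was thus not established. Bulk RNA could also not tell fewer cells with perforin RNA from less of it per cell.

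Gzmb had a log2 fold change of -0.14 (95% interval -0.55 to 0.26, edgeR adjusted p = 0.999), and Gzma one of 0.15 (-0.15 to 0.44, adjusted p = 0.964). For Srgn the interval ran from -0.39 to 0.78 around 0.19 (adjusted p = 0.999). These intervals exclude a doubling or a halving of Gzma, Gzmb and Srgn over these libraries, and smaller changes were not resolved. Gzmc, at 1.55 ± 0.594 and 1.80 ± 0.313 CPM, had a log2 fold change of 0.22 (-0.51 to 0.95). The interval of Gzmm was -1.65 to 0.69 and that of Nkg7 -2.02 to 2.00, so at this depth changes of either gene within these wide limits were not detectable.

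**Figure D3:**
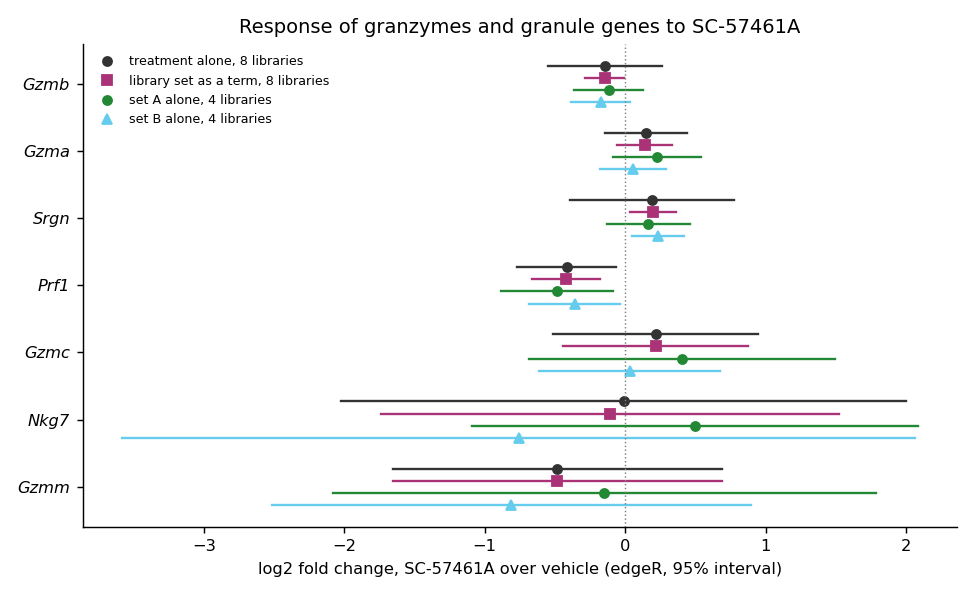
log2 fold change of each granule gene, SC-57461A over vehicle, with its 95% interval from edgeR, for treatment alone, with library set as a term and for set A and set B alone. The interval of Prf1 lies below 0 in all 4 fits, that of Gzmb with the set term, that of Srgn above 0 with the set term and in set B, and those of Nkg7 and Gzmm are the widest.

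The library sets moved some members more than the treatment did. Gzmb averaged 5864 ± 421 CPM in set A and 4241 ± 392 CPM in set B, a ratio of 1.38. Srgn averaged 2864 ± 348 CPM in set A and 1755 ± 179 CPM in set B, a ratio of 1.63. For both genes all 4 libraries of set A lay above all 4 of set B, as they did for 23.3% of the genes tested, while 44.0% were separate in one direction or the other. The other 5 members overlapped between the sets. Prf1 leaned the other way, at 13.2 ± 3.07 CPM in set A and 15.9 ± 2.80 CPM in set B. Summed myeloid markers were also higher in set A (28.2 to 50.9 CPM) than in set B (6.20 to 8.46 CPM). Among them, Lyz2 had 851 to 1607 counts in set A libraries and 0 in every set B library. Cd68, by contrast, was found in every library, at 315 to 708 counts. The share of counts from short transcripts moved with the sets as given above. The part of that share, or of myeloid RNA, in the set difference of Gzmb and Srgn was not tested.

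Within a set, the treatments could be compared without that shift. In set A, the vehicle libraries had Prf1 at 13.4 and 17.4 CPM and those with SC-57461A at 11.3 and 10.6 CPM. In set B, the vehicle libraries had it at 15.7 and 19.9 CPM and those with SC-57461A at 13.8 and 14.1 CPM. Both vehicle libraries were above both SC-57461A libraries in each set. Gzmb did the same, at 6054 and 6176 against 5244 and 5983 CPM in set A, and at 4696 and 4288 against 3740 and 4239 CPM in set B. The gap between the closest libraries of Gzmb was small in both sets. Such a separation, in either direction, was found for 19.9% of the genes tested, and no other member had it. Srgn was separate in set B, at 1664 and 1554 in vehicle against 1851 and 1952 CPM, and not in set A, at 2733 and 2677 against 2663 and 3384 CPM.

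**Figure D4:**
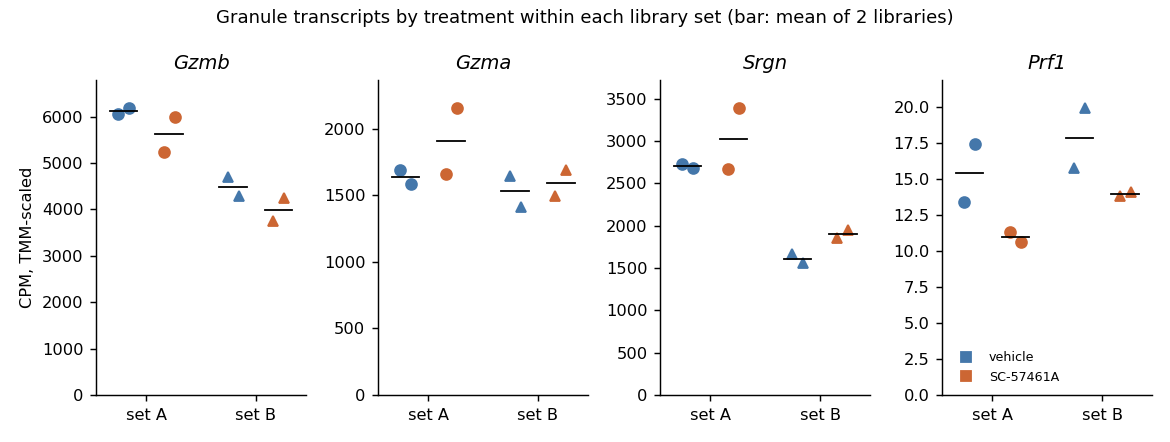
CPM of Gzma, Gzmb, Srgn and Prf1 by library set and treatment, with circles for set A, triangles for set B, colours for treatment and bars for the mean of 2 libraries. Both vehicle libraries of Prf1 and Gzmb lie above both SC-57461A libraries within each set, and Gzmb and Srgn are higher in set A.

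With library set as a term in the edgeR fit, 804 genes (5.33%) were called, 427 (2.83%) higher and 377 (2.50%) lower, and again none of the 7 members. Prf1 came nearest, with a log2 fold change of -0.42 (SE 0.11, 95% interval -0.66 to -0.18) and an adjusted p of 0.0503. It was -0.49 in set A alone and -0.36 in set B alone. Leaving out vehicle replicate 3 in this fit brought the adjusted p of Prf1 to 0.0289 (log2 fold change -0.50), and leaving out any other library left it above 0.05. Srgn had a log2 fold change of 0.20 (0.04 to 0.36, adjusted p = 0.143), and passed only without SC-57461A replicate 2 (0.27, adjusted p = 0.0337). For Gzmb the value was -0.15 (-0.29 to -0.005, adjusted p = 0.209) and for Gzma 0.14 (adjusted p = 0.391). No member's response differed between the sets by the interaction term (adjusted p 0.933 to 0.984). That test called 1 gene in all, and 749 at an unadjusted p under 0.05.

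The genes whose level over the 8 libraries most resembled a member's were found by the root mean square difference of centred log2 CPM, over 8383 protein-coding genes with a mean of 10 CPM or more. Gzma was nearest to Rps4x (0.03) and Psmb1 (0.04), where the median gene was at 0.28. For Gzmb they were Naxe (0.05) and Lrr1 (0.05), and for Srgn they were Sft2d1 (0.05) and mt-Co2 (0.05). Prf1 was nearest to Rcsd1 (0.08) and Pmepa1 (0.09). Among the 4 members at this level, Gzma and Gzmb differed by 0.22, Gzmb and Srgn also by 0.22, and Prf1 and Srgn by 0.60, the largest distance. The libraries share their sets and depth, so these distances describe patterns only.

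Around the members stand the genes that process, load, release and regulate granules, in 6 lists of 81 named genes, of which 78 had a row and 67 were tested. With treatment alone 1 of the 67 (1.49%) was called, and with library set as a term 7 (10.4%, against 5.33% of all genes), 6 higher and 1 lower. Their median log2 fold change was 0.0056. The 3 other granzyme genes with a row, Gzme, Gzmf and Gzmn, were too low to test.

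Among 11 tested genes of granzyme processing and granule content, 1 rose and the median was 0.06. Spp1, which encodes the secreted glycoprotein osteopontin, was at 4.72, 3.97, 4.43 and 3.88 CPM in vehicle replicates 1 to 4. In SC-57461A replicates 1 to 4 it was at 6.96, 7.20, 9.03 and 7.92 CPM. All 4 treated libraries lay above all vehicle libraries, which 6.13% of genes tested showed in one direction or the other. Its log2 fold change was 0.87 (edgeR adjusted p = 0.0462, and 0.0034 with the set term). Leaving out any 1 of the 8 libraries ended that call with treatment alone, as did the transcript length offset, the replicate block and dropping the filter. Spp1 is not a cytotoxic granule protease and is made by many cell types.

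Ctsc encodes cathepsin C, the dipeptidase that converts progranzymes to active enzymes, and averaged 102 ± 8.28 CPM with vehicle and 116 ± 5.26 CPM with SC-57461A (log2 fold change 0.18, edgeR adjusted p = 0.831). Cst7, which encodes cystatin F, an inhibitor of that enzyme, was at 102 to 128 FPKM. Calr, which encodes calreticulin, a calcium-binding chaperone that is also found in granules, ranged from 1175 to 1330 CPM with vehicle and from 1429 to 1522 CPM with SC-57461A. The Calr groups did not overlap, its log2 fold change was 0.27, and it was called with the set term only (adjusted p = 0.0238, against 0.478). The list's 2 calls with the set term were 1 without vehicle replicate 1 or 2 or SC-57461A replicate 1 or 4.

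Of 6 tested granule serpins, intracellular inhibitors that protect the cell from its own proteases, none was called (median 0.06). Serpinb9, known for blocking granzyme B in human cells and whose level was 1.16 to 3.17 CPM by library total, had a log2 fold change of -0.17. Serpinb6a was the highest, at 19.2 to 23.0 FPKM. All 15 enzymes that build and sulfate the glycosaminoglycan chains of serglycin were tested and none was called (median 0.02). The highest of them by mean were the linkage enzyme gene B3gat3, at 15.9 to 27.8 FPKM, and the chondroitin sulfotransferase gene Chst12, at 18.7 to 27.9 FPKM.

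Of 18 tested genes of granule exocytosis, none was called with treatment alone (median -0.04). Stx11, which encodes a syntaxin needed for release of lytic granules, had a log2 fold change of 0.26 and was called higher with the set term only (edgeR adjusted p = 0.0380, against 0.800). That fit called no gene of the list higher in 6 of 8 fits without 1 library, and 1 gene without vehicle replicate 3 or SC-57461A replicate 3. Rab27b, a relative of the GTPase that docks granules, had -0.27 and the Rab27 effector Sytl1 -0.32, neither called in either fit. The cytoskeletal genes Coro1a, at 293 to 360 FPKM, and Cdc42, at 191 to 252 FPKM, were the highest of the list.

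Of 17 tested regulators of granule genes, none was called with treatment alone (median 0.03). With the set term, Irf4, a factor induced by activation, had a log2 fold change of 0.40 (adjusted p = 0.0096), Il2ra, the IL-2 receptor alpha chain, 0.32 (adjusted p = 0.0184) and Id2, the inhibitor of E proteins required by innate lymphoid cells, 0.37 (adjusted p = 0.0268), all called higher. Foxo1, a factor of resting lymphocytes, was called lower, at -0.34 (adjusted p = 0.0380). The list's 3 higher calls became 0 without vehicle replicate 2, 1 without vehicle replicate 4 or SC-57461A replicate 1 or 4, and 2 without vehicle replicate 1 or SC-57461A replicate 3. The lower call was absent in 6 of 8 fits without 1 library, all but those without vehicle replicate 3 or SC-57461A replicate 3. The T-box factors Eomes and Tbx21, which drive Prf1 and Gzmb in natural killer cells and cytotoxic T cells, had at most 8 counts in a library. Runx3, a partner of those factors that was picked after its values were seen, was at 144 to 227 CPM, with a log2 fold change of -0.26 (adjusted p = 0.776, and 0.139 with the set term).

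**Figure D5:**
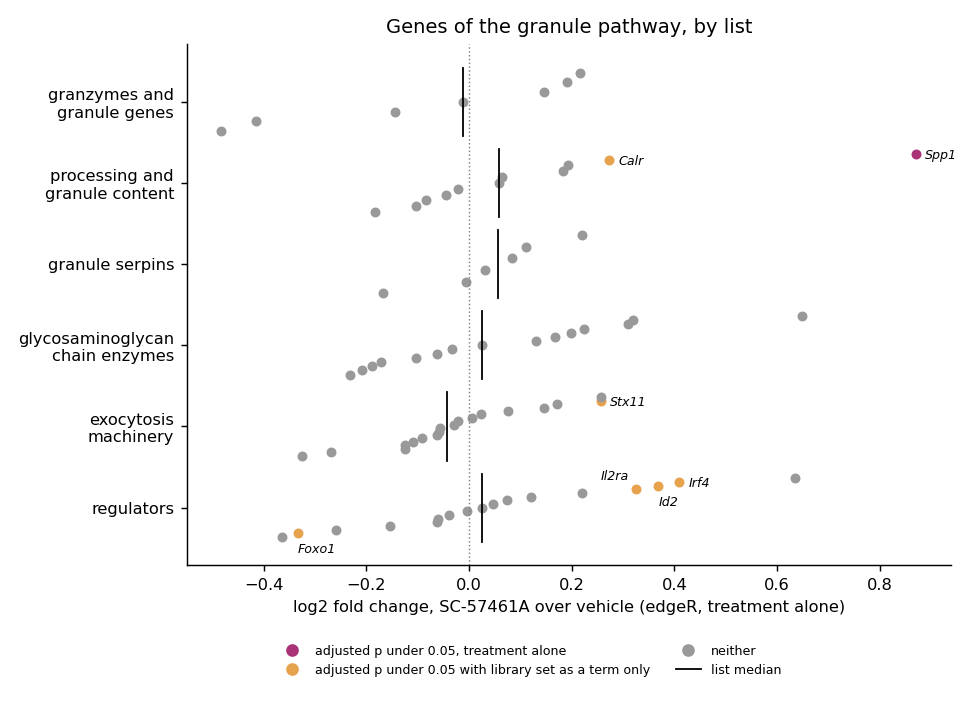
log2 fold change (SC-57461A over vehicle, edgeR with treatment alone) of each tested gene in the granule gene lists, 1 row per list, with the list median as a line. Spp1, at 0.87, is the gene called with treatment alone, and Calr, Stx11, Irf4, Il2ra, Id2 and Foxo1 are called only with library set as a term.

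Cell type markers that moved with the treatment stood beside these values. The 7 measured markers of type 3 innate lymphoid cells summed to 42.8 to 57.8 CPM in vehicle and 75.7 to 114 CPM in SC-57461A libraries, with Ncr1 at 20 counts or fewer. Summed epithelial markers were 14.4 to 24.4 CPM with vehicle and 40.0 to 47.5 CPM with SC-57461A in set A, and the other way round in set B, at 14.2 to 16.5 CPM with vehicle and 9.31 to 13.1 CPM with SC-57461A. The edgeR fit with treatment alone called no gene of these lists, nor of the mast cell, basophil and ILC2 markers. With the set term, Il17f (log2 fold change 1.09, adjusted p = 4.6e-05), Il22 (adjusted p = 0.011) and Il17a (adjusted p = 0.028) were called higher. So were the epithelial genes Muc2 (4.19, adjusted p = 0.00096), Krt19 (adjusted p = 0.020) and Krt8 (adjusted p = 0.045). Krt19 and Krt8 had 0 counts in every set B library. In the same fit, Mcpt8 (log2 fold change -0.44, adjusted p = 0.0440) and Kit (-0.36, adjusted p = 0.0346) of the mast cell and basophil list were called lower. The 7 other measured genes of that list were under 1 CPM in every library. Of the ILC2 markers, Gata3 was called lower (-0.35, adjusted p = 0.0498), and Il5 (0.26, adjusted p = 0.0382), Calca (0.83, adjusted p = 0.00077), Il2ra and Id2 were called higher. Their part in the values of Prf1, Gzmb and Srgn was not tested.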

How the data were processed

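The deposited table of the authors holds, per the file headers, a raw count and an FPKM value of each gene in each library. Per the submitters' processing notes, cutadapt 4.7 and FastQC were used and the build was mm10. The aligner, counter, strand setting and annotation were not given in the sources used here. Reads of a gene and of an antisense partner therefore cannot be told apart. No member overlaps an exon of another gene in GENCODE M21, whose symbols were matched to 24998 of 25367 genes. Every column of values was mapped to a sample by its name.

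Since counts were deposited, edgeR was the main test: filterByExpr (15095 genes), TMM factors, the quasi-likelihood test, two-sided, with Benjamini-Hochberg adjusted p under 0.05 (edgeR 4.0.16, R 4.3.3). CPM values use TMM factors, except summed marker levels, limits for 0 counts and markers under 1 CPM, which use library totals. FPKM values are those of the authors. Chi-square over degrees of freedom was 16.7 to 583 for the 28 pairs of libraries, so none is a repeat deposit. Library sets were read from summed FPKM, not from labels. Alternatives were other scalings and filters, DESeq2 1.42.0, limma 3.58.1 on log2(FPKM + 1), a replicate block, library sets, a transcript length offset and leaving out libraries. Fits were tested on simulated data.

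The members and lists were chosen with earlier results of these data known. All members are named; of other lists, up to 3 genes with the smallest p and the 2 highest by FPKM, plus, picked later, defining markers and Runx3. Promoters are from RefSeq (GRCm38.p6), and transcripts were aligned with BLAST 2.17.0. Other work used matplotlib 3.10.9, scipy 1.17.1, numpy 2.4.6, pandas 2.3.3 and Python 3.11.15.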

Additional observations from a re-analysis of the deposited data

Results flagged for a closer look

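Among 14 groups of 4 libraries screened, 1 member in 1 treatment had a library far from the rest. Gzmc stood at 2.27 CPM in SC-57461A replicate 2, while the other SC-57461A libraries lay between 1.62 and 1.67 CPM. Chance marks about 1 in 20 such groups, and the value rests on 107 counts.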

How the results depend on the processing

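The 50 genes called over the whole table (41 higher, 9 lower) became 117 and 78 with DESeq2, 14 and 1 with the replicate number as a block, 427 and 377 with library set as a term, 77 and 21 in set A alone and 86 and 16 in set B alone; limma on FPKM with no filter gave 24 higher. Without 1 library they ranged from 25 to 31 higher and from 3 to 7 lower, and with the set term as well from 151 to 483 higher and from 89 to 490 lower. The cause was not tested. Same-number correlations between the treatments ran from -0.587 to 0.6345. They were positive for replicates 2 and 4, which share a library set, and negative for replicates 1 and 3, which do not. This check followed the sets, so it cannot decide whether replicate numbers pair the libraries. The replicate block called no member. In 30 alternatives the members called ranged from 0 to 1: Prf1 lower without vehicle replicate 3 and Srgn higher without SC-57461A replicate 2, both with the set term. Prf1 was lower in all 30 (-0.51 to -0.32), Gzma higher in all 30 (0.02 to 0.23) and Gzmb lower in all 30 (-0.27 to -0.04). The sign turned for Gzmc without vehicle replicate 1 (-0.014, and -0.057 with the set term; range without 1 library -0.057 to 0.50) and for Srgn without SC-57461A replicate 3 (-0.0085; range to 0.32). Nkg7 turned to 0.50 in set A alone, to 0.05, 0.22 and 0.40 without vehicle replicates 1 and 4 and SC-57461A replicate 4, and with the set term to 0.31 and 0.40 without the latter 2, and with that term was lowest, -0.68, without SC-57461A replicate 1. Depth limits Gzmm and Nkg7, at 0 to 37 counts per library.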
